A study of Mus musculus with 4 samples.

Results

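The genes described here are 39 interferon-stimulated genes, picked by symbol from the 17691 genes of the deposited expression table. They were split into 31 genes of the antiviral programme that type I interferons induce, called type I style below, and 8 GTPase genes, of which 4 encode guanylate-binding proteins and 4 encode immunity-related GTPases (IRG proteins). The class names are loose: Irf1, which relays interferon gamma signals, and the dynamin-like GTPase Mx1 are counted as type I style. Lung tissue came from wild-type C57BL/6 mice of 6 to 8 weeks. The bleomycin group had been given this DNA-breaking drug, which injures the lung and leads to fibrosis, through the nose, and the PBS group had been given the buffer by the same route. Treatment lasted 10 days, and each group holds 2 RNA sequencing libraries. All mice lived in a pathogen-free facility, and the labels name no virus or interferon for either group. The protocol in the labels speaks of 4 groups and the design text of triplicates, while 2 groups of 2 libraries were analysed here. The labels do not say that the libraries came from separate animals, so p-values reflect no more than the variation among these 4 libraries, and that variation could be technical.

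Interferons are cytokines that make cells hostile to viruses and to microbes living inside them. Type I interferons act through a receptor whose signal brings STAT2 and IRF9 to the interferon-stimulated response element, a DNA motif of repeated GAAA letters. Interferon gamma, made by T cells and NK cells, acts through the gamma-activated site, a palindrome of TTC and GAA, and induces the guanylate-binding and IRG GTPases most strongly. In lung tissue such genes are expressed by epithelium, endothelium and leukocytes alike, and both kinds of interferon induce many of them.

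Across the 4 libraries, estimated depth was 17300000 and 17800000 fragments with bleomycin and 17000000 and 17100000 fragments with PBS. Values are FPKM, fragment counts divided by transcript length and by the size of the library, a level that allows comparison between genes. Correlations of log2 values over 12986 tested genes were 0.977 for the bleomycin pair and 0.995 for the PBS pair, so the bleomycin libraries stood further apart. The Y-linked gene Eif2s3y was listed at 0 in both bleomycin libraries, against 26.43 and 28.86 FPKM in the PBS libraries, so a difference in sex and the treatment cannot be told apart. The lung label fitted the markers of alveolar type II cells, which summed to 14095 and 11053 FPKM with bleomycin and to 12950 and 15718 FPKM with PBS. Hepatocyte markers, of which 12 of 12 fell, summed to 14.1 and 9.17 FPKM with bleomycin and to 143 and 137 FPKM with PBS, and their part in the results below was not tested.

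Promoter sequences of 6 members are shown because they carry the 2 motifs through which the interferons act, and because these genes span the patterns described below. The sequences are from RefSeq on GRCm38.p6, run 5′ to 3′ on the strand of the gene, and cover 250 bases before and 50 bases after the start of transcription. Capitals mark matches on either strand to GAAANNGAAA, the repeat of the response element, or to TTCNNNGAA, the palindrome of the gamma-activated site. Matches were allowed to overlap.
Isg15, chr4:156200769-156201068, minus strand: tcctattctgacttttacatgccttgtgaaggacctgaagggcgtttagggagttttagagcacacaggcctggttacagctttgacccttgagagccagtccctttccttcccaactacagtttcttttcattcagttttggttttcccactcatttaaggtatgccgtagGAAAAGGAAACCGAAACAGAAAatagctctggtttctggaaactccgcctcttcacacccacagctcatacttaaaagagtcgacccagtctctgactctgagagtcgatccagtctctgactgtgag
Ifit1, chr19:34640639-34640938, plus strand: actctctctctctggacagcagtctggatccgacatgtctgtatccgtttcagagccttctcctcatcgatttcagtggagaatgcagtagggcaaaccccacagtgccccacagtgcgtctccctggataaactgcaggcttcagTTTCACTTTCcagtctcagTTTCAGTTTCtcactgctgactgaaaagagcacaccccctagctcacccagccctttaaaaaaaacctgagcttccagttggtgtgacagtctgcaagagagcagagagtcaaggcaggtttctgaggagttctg
Oas1a, chr5:120907476-120907775, minus strand: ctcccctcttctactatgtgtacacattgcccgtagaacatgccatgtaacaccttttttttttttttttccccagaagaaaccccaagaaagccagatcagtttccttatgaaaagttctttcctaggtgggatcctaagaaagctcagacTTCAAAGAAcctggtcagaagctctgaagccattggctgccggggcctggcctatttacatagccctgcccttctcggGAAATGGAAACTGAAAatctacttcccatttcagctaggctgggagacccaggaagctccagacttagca
Gbp2, chr3:142620413-142620712, plus strand: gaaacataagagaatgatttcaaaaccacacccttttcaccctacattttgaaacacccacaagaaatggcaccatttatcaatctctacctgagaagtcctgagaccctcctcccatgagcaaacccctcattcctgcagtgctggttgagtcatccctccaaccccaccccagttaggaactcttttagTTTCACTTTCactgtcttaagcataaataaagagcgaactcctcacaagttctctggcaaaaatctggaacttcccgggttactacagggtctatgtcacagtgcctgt
Igtp, chr11:58199306-58199605, plus strand: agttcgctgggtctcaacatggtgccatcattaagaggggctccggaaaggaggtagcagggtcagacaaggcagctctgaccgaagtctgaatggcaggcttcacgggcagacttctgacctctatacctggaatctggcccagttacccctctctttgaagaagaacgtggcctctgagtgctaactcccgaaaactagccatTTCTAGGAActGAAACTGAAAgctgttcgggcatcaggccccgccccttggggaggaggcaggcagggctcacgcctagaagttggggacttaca
Irf1, chr11:53769764-53770063, plus strand: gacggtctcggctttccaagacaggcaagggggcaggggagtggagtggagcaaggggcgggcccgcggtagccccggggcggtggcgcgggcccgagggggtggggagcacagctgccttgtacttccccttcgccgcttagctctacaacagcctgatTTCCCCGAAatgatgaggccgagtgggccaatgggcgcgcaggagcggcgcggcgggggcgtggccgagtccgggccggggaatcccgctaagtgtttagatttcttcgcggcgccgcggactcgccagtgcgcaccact
The Isg15 promoter holds 3 overlapping GAAA repeats that begin 78, 72 and 66 bases before the start. Ifit1 has 2 separate repeats, read on the other strand, that begin 104 and 85 bases before the start. Oas1a has 2 overlapping repeats and, further upstream, 1 palindrome. Gbp2 has 1 repeat on the other strand, whereas Igtp has a palindrome 45 bases and a repeat 34 bases before the start. In Irf1 the only match is a palindrome 90 bases before the start.

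Of the 39 members, 30 had an entry in the promoter table, with 34 promoters in all. The GAAA repeat was found in 18 of these 34 promoters (52.9%), against 3.44% of all 32851 promoters of the same length. By class it was in 7 of 8 promoters of GTPase members (87.5%) and in 11 of 26 promoters of type I style members (42.3%). These promoters belong to 7 GTPase and 23 type I style members. Irf1, Irf9, Ifit2 and Gbp3 entered with more than 1 promoter each, and among them only Gbp3 had the repeat. The difference between the classes was not tested. The palindrome was found in 9 of 34 member promoters (26.5%), namely 4 of 8 for GTPase members (50%) and 5 of 26 for type I style members (19.2%), against 8.30% of all promoters. A match describes letters in this window and is not a measured binding site. Promoters of Iigp1, Mx1, Mx2, Rtp4, Zbp1, Parp9, Parp14, Usp18 and Oas2 are not shown or counted.

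None of the 39 members passed the test between the groups. The two-sided test was limma on log2(FPKM + 1) over the 12986 genes averaging 1 FPKM or more, and all 39 members were among them. P-values were adjusted over those genes by the Benjamini-Hochberg method, with 0.05 as the threshold. Limma called 0 members higher, against 8.59% of all tested genes, and 0 members lower, against 7.69%. The counts were also 0 under the 11 alternative settings that kept all 4 libraries. At an unadjusted p under 0.05, limma gave 0 members higher, against 17.2% of tested genes, and 1 member lower, Irf1, against 18.1%. The median log2 fold change of the members was -0.02, the same as the -0.02 of all tested genes. Each fold change here and below is bleomycin over PBS on the log2(FPKM + 1) scale, on which changes of weakly expressed genes look smaller than they are.

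The members shared a gap between the bleomycin libraries. All 39 were higher in bleomycin replicate 1 than in bleomycin replicate 2, against 62.3% of tested genes. In 30 of 39 members, replicate 1 lay above both PBS libraries while replicate 2 lay below both, a pattern seen in 8.66% of tested genes, and the opposite pattern was seen in 0 members, against 3.73% of tested genes. Both bleomycin libraries lay above both PBS libraries in 2 members, Oas3 and Lgals3bp, against 31.5% of tested genes, and below both in 1 member, Irf1, against 35.0%. The median SE of a member's log2 fold change was 0.42, against 0.12 for all tested genes.

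**Figure D1:**
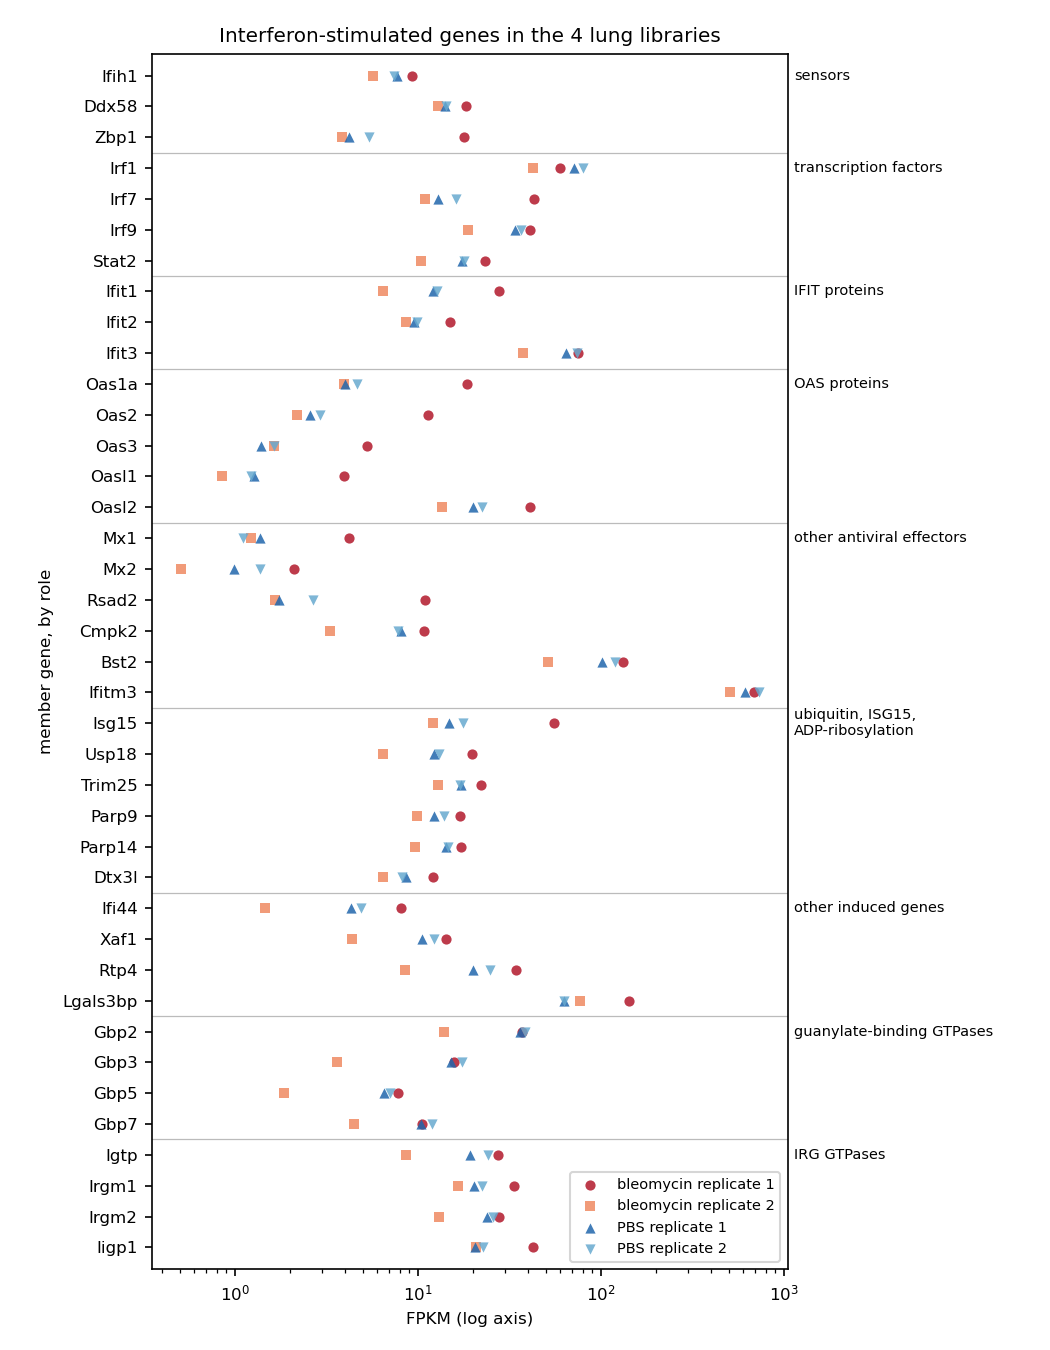
FPKM of each of the 39 members (log axis) in the 2 bleomycin libraries (circles and squares) and the 2 PBS libraries (triangles), grouped by role. The circle of bleomycin replicate 1 lies right of the square of bleomycin replicate 2 for all 39 genes, and the PBS triangles mostly lie between them.

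The sensors of foreign or misplaced nucleic acid were measured through Ifih1, Ddx58 and Zbp1. Ifih1, which encodes the long double-stranded RNA sensor MDA5, had 9.36 and 5.68 FPKM with bleomycin, against 7.72 and 7.40 FPKM with PBS. Ddx58, which encodes the RNA sensor RIG-I, had 18.30 and 12.89 FPKM with bleomycin, against 14.03 and 14.30 FPKM with PBS. For both sensors the bleomycin libraries bracketed the PBS libraries, and the fold changes were -0.04 and 0.11. Zbp1, which detects Z-form nucleic acid and can start necroptosis, had 17.85 and 3.86 FPKM with bleomycin, against 4.22 and 5.40 FPKM with PBS. Replicate 1 was thus far above the other 3 libraries, which lay close together, and the log2 fold change of Zbp1 was 0.73 ± 0.65 (SE; limma adjusted p = 0.466).

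The transcription factors held the member with the smallest p. Irf1, the factor that relays interferon gamma signals, had 59.91 and 42.64 FPKM with bleomycin, against 71.43 and 79.65 FPKM with PBS. The groups did not overlap, with means of 51.3 ± 12.2 FPKM for bleomycin and 75.5 ± 5.81 FPKM for PBS (SD, n = 2 each). The log2 fold change of Irf1 was -0.57 ± 0.18 (SE), but it did not pass after adjustment (limma adjusted p = 0.0986). Irf7, the factor that amplifies interferon alpha genes, had 43.04 and 10.95 FPKM with bleomycin, against 12.96 and 16.16 FPKM with PBS. As with Zbp1, the high value was in replicate 1 alone, and the log2 fold change was 0.57 ± 0.62 (SE; limma adjusted p = 0.553). Irf9 had 40.89 and 18.94 FPKM with bleomycin, against 34.18 and 36.90 FPKM with PBS. Stat2 had 23.37 and 10.40 FPKM with bleomycin, against 17.43 and 17.92 FPKM with PBS. These partners of the type I complex lay above the PBS range in replicate 1 and below it in replicate 2, by more on the low side.

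IFIT proteins bind viral RNA ends and block translation. Ifit1, whose promoter with 2 repeats is shown above, had 27.86 and 6.49 FPKM with bleomycin, against 12.07 and 12.71 FPKM with PBS. Its PBS libraries differed by less than 1 FPKM while its bleomycin libraries differed 4.29-fold, and its log2 fold change was 0.14 ± 0.64 (SE; limma adjusted p = 0.897). Ifit2 had 15.10 and 8.65 FPKM with bleomycin, against 9.58 and 9.92 FPKM with PBS. Ifit3 had 74.97 and 37.65 FPKM with bleomycin, against 64.94 and 74.16 FPKM with PBS. Ifit3 was thus just above the higher PBS library in replicate 1 and about 0.541 times the PBS mean in replicate 2. The 3 genes lie together on chromosome 19, Ifit2 and Ifit3 6.59 kb apart. Ifit1 overlaps Ifit1bl1, and Ifit3 has the near copy Ifit3b, so reads of these pairs could be split in either way.

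Oligoadenylate synthetases make the short RNA that switches on RNase L, which cleaves RNA in infected cells. Oas1a had 18.64 and 3.95 FPKM with bleomycin, against 4.0 and 4.67 FPKM with PBS. Oas2 had 11.36 and 2.2 FPKM with bleomycin, against 2.59 and 2.94 FPKM with PBS. In replicate 1 they were 4.30-fold and 4.11-fold over their PBS means, and in replicate 2 both lay below both PBS libraries, Oas1a by a small margin. The estimated fragments behind Oas1a were 608 and 133 with bleomycin and 128 and 151 with PBS. The part of counting error in the gap between the bleomycin libraries was not tested. Oas3, the long synthetase, had 5.26 and 1.65 FPKM with bleomycin, against 1.40 and 1.64 FPKM with PBS. Its groups did not overlap, but replicate 2 and the higher PBS library differed only in the last of the 2 decimals deposited.

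The synthetase-like genes had the same layout. Oasl1, which in mice restrains translation of Irf7, had 3.96 and 0.85 FPKM with bleomycin, against 1.28 and 1.23 FPKM with PBS. Oasl2 had 40.89 and 13.57 FPKM with bleomycin, against 20.12 and 22.49 FPKM with PBS. Among the 5 synthetase genes, the median difference from the PBS mean was 1.31 on the log2 scale in replicate 1 and -0.23 in replicate 2. The log2 fold changes of these 5 genes lay between 0.15 and 0.89, the highest that of Oas1a at 0.89 ± 0.65 (SE; limma adjusted p = 0.383). Oas1a, Oas2 and Oas3 lie in a cluster on chromosome 5, as do Oasl1 and Oasl2, and Oas1a has near copies among its neighbours, so its reads are uncertain.

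Among the other antiviral effectors, Rsad2 showed the widest gap. Rsad2, which encodes viperin, the maker of a chain-terminating nucleotide, had 10.94 and 1.67 FPKM with bleomycin, against 1.75 and 2.67 FPKM with PBS. Replicate 1 was 6.55-fold over replicate 2, the largest such ratio of the 39 members, and the log2 fold change of Rsad2 was 0.83 ± 0.72 (SE; limma adjusted p = 0.458). Cmpk2, a mitochondrial nucleotide kinase whose gene lies 12.7 kb from Rsad2 on chromosome 12, had 10.85 and 3.30 FPKM with bleomycin, against 8.12 and 7.77 FPKM with PBS. The pair differed in where the gap lay: Rsad2 was high in replicate 1 and near PBS in replicate 2, while Cmpk2 was closer to PBS in replicate 1 and at 0.415 times the PBS mean in replicate 2.

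Mx1, a dynamin-like GTPase that blocks influenza virus in the nucleus and is disrupted in most inbred laboratory mice, had 4.22 and 1.23 FPKM with bleomycin, against 1.37 and 1.11 FPKM with PBS. Mx2, its cytoplasmic relative, had 2.12 and 0.51 FPKM with bleomycin, against 0.99 and 1.37 FPKM with PBS. The 2 genes are similar in sequence and neighbours on chromosome 16, and Mx2 was the lowest member, with 21.9 estimated fragments in bleomycin replicate 2. Bst2, or tetherin, which holds budding virions at the cell surface, had 132.19 and 51.30 FPKM with bleomycin, against 101.61 and 120.33 FPKM with PBS. Ifitm3, which stops viruses from fusing with endosomes, was the most abundant member, with 689.08 and 507.17 FPKM with bleomycin, against 614.65 and 730.23 FPKM with PBS. Ifitm3 also had the smallest gap between the bleomycin libraries, 1.36-fold, and its replicate 1 lay inside the PBS range.

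The ISG15, ubiquitin and ADP-ribosylation genes differed in the size of the gap. Isg15, a ubiquitin-like modifier, had 55.66 and 12.17 FPKM with bleomycin, against 14.93 and 17.79 FPKM with PBS. Its means were 33.9 ± 30.8 FPKM for bleomycin and 16.4 ± 2.02 FPKM for PBS (SD, n = 2 each). Replicate 1 was 3.40-fold over the PBS mean and replicate 2 was at 0.744 times that mean, so the log2 fold change of Isg15 was 0.66 ± 0.69 (SE; limma adjusted p = 0.536). Usp18, the protease that removes ISG15 from proteins and restrains the type I receptor, had 19.89 and 6.46 FPKM with bleomycin, against 12.28 and 13.08 FPKM with PBS. In FPKM the bleomycin libraries of Usp18 lay about equally far above and below the PBS libraries.

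Trim25, the ubiquitin ligase of RIG-I signalling, had 22.09 and 13.00 FPKM with bleomycin, against 17.21 and 17.15 FPKM with PBS. Parp9 had 16.96 and 9.98 FPKM with bleomycin, against 12.36 and 14.00 FPKM with PBS. Dtx3l, whose ubiquitin ligase forms a complex with PARP9, had 12.12 and 6.50 FPKM with bleomycin, against 8.59 and 8.18 FPKM with PBS. Parp9 and Dtx3l overlap by 558 bases on chromosome 16, so their values may share reads, since use of strand is not given in the sources used here. Parp14, a mono-ADP-ribosyltransferase encoded nearby, had 17.31 and 9.69 FPKM with bleomycin, against 14.35 and 14.57 FPKM with PBS. In these 4 genes replicate 1 was 1.70-fold to 1.86-fold over replicate 2, a smaller gap than in Isg15 or Usp18.

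Of the remaining type I style members, 3 had their larger departure from PBS, on the log2 scale, on the low side. Ifi44 had 8.13 and 1.46 FPKM with bleomycin, against 4.34 and 4.91 FPKM with PBS. Xaf1, an antagonist of the apoptosis inhibitor XIAP, had 14.30 and 4.36 FPKM with bleomycin, against 10.62 and 12.32 FPKM with PBS. Rtp4, a chaperone of some cell surface receptors, had 34.34 and 8.55 FPKM with bleomycin, against 20.17 and 24.98 FPKM with PBS. In replicate 2 these genes were at 0.316, 0.380 and 0.379 times their PBS means. Lgals3bp, a secreted glycoprotein that binds galectin-3, was the exception, with 142.77 and 77.06 FPKM in bleomycin lungs, against 63.12 and 62.91 FPKM in PBS lungs. Both bleomycin libraries exceeded both PBS libraries, and the log2 fold change of Lgals3bp was 0.73 ± 0.30 (SE), which did not pass after adjustment (limma adjusted p = 0.158).

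Guanylate-binding proteins attack the membranes around microbes inside cells and assist inflammasomes. Gbp2 had 37.35 and 13.85 FPKM with bleomycin, against 36.28 and 38.75 FPKM with PBS. Gbp3 had 15.71 and 3.63 FPKM with bleomycin, against 15.24 and 17.41 FPKM with PBS. In both genes replicate 1 lay inside the PBS range and replicate 2 far below it, and Gbp3 in replicate 2 was at 0.222 times its PBS mean, the lowest such ratio of the members. Gbp5, which promotes inflammasome assembly, had 7.81 and 1.87 FPKM with bleomycin, against 6.54 and 7.02 FPKM with PBS. Gbp7 had 10.56 and 4.51 FPKM with bleomycin, against 10.45 and 12.00 FPKM with PBS. The summed level of the 4 genes was 71.4 and 23.9 FPKM with bleomycin and 68.5 and 75.2 FPKM with PBS. In this sum replicate 1 lay inside the PBS range and replicate 2 far below it.

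The log2 fold changes of the guanylate-binding members lay between -0.98 and -0.61, and that of Gbp3 was -0.98 ± 0.61 (SE; limma adjusted p = 0.313). These genes sit side by side on chromosome 3 and resemble each other in sequence, so reads may have been split between them and the 4 values are not independent.

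IRG proteins are interferon-gamma-induced GTPases that attack or regulate the vacuoles of intracellular parasites and bacteria. Igtp, also called Irgm3, had 27.46 and 8.61 FPKM with bleomycin, against 19.27 and 24.25 FPKM with PBS. Irgm2, which lies 7.39 kb from Igtp on chromosome 11, had 28.01 and 13.03 FPKM with bleomycin, against 24.07 and 25.72 FPKM with PBS. On the log2 scale these neighbours lay further below PBS in replicate 2 than above it in replicate 1. Irgm1, a regulator of autophagy that keeps effector IRG proteins off the membranes of the host, had 33.52 and 16.59 FPKM with bleomycin, against 20.40 and 22.40 FPKM with PBS. Iigp1, an effector that coats the vacuole of Toxoplasma, had 42.78 and 20.87 FPKM with bleomycin, against 20.67 and 22.68 FPKM with PBS. For Iigp1 replicate 2 lay inside the PBS range and replicate 1 was 1.97-fold over the PBS mean, with a log2 fold change of 0.45 ± 0.34 (SE; limma adjusted p = 0.390). Summed over the 4 IRG members, levels were 131.8 and 59.1 FPKM with bleomycin and 84.4 and 95.1 FPKM with PBS.

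Set side by side, the classes gave these counts and medians. Replicate 1 lay above both PBS libraries in 5 of 8 GTPase members and in 29 of 31 type I style members, or 34 of 39, against 44.9% of tested genes. Those 5 were 1 of 4 guanylate-binding and 4 of 4 IRG members. Replicate 2 lay below both PBS libraries in 7 of 8 GTPase members and in 28 of 31 type I style members, or 35 of 39, against 49.9% of tested genes. On the log2 scale the median difference of replicate 1 from the PBS mean was 0.17 for GTPase members and 0.58 for type I style members, against 0.01 for all tested genes. The median difference of replicate 2 from the PBS mean was -1.19 for GTPase members and -0.39 for type I style members, against -0.05 for all tested genes.

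In replicate 1, a level of at least 2-fold over the PBS mean was reached by 11 of 39 members, against 5.96% of tested genes: Zbp1, Irf7, Ifit1, Oas1a, Oas2, Oas3, Oasl1, Mx1, Rsad2, Isg15 and Lgals3bp. These are type I style members, and the GTPase Iigp1 lay just under that level at 1.97-fold. The median log2 fold change was -0.66 for guanylate-binding members, -0.11 for IRG members and -0.00 for type I style members. These are descriptions of 2 lists, and the difference between the classes was not tested.

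**Figure D2:**
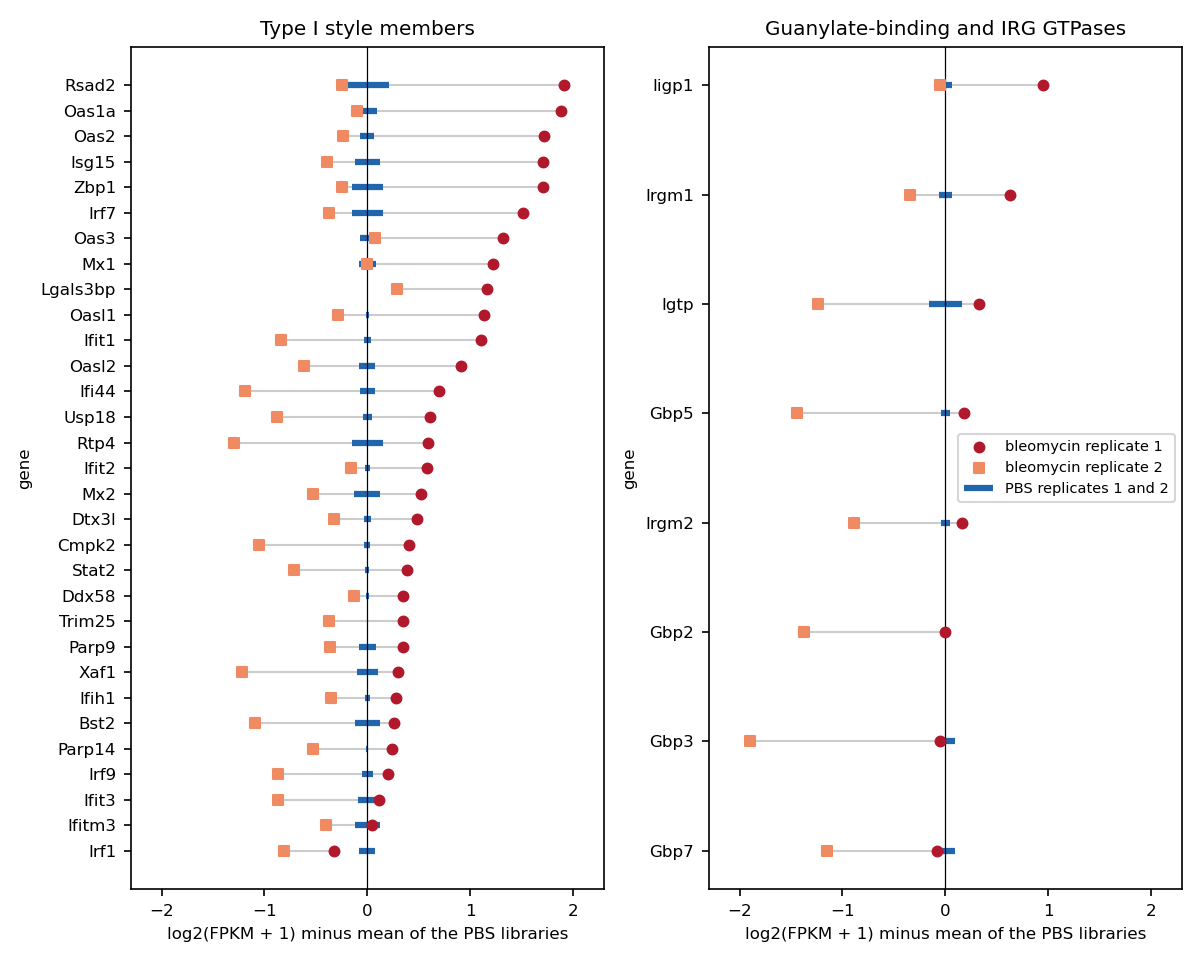
Level of each member in bleomycin replicate 1 (circles) and replicate 2 (squares) as log2(FPKM + 1) minus the mean of the PBS libraries, with the PBS libraries as bars around 0, for type I style members (left) and GTPase members (right). Circles reach 1.91 (Rsad2) in the left panel and squares reach -1.90 (Gbp3) in the right panel.

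The gap between the bleomycin libraries was large for the members. Replicate 1 was at least 2-fold over replicate 2, on the log2(FPKM + 1) scale, in 27 of 39 members, 7 of 8 GTPase and 20 of 31 type I style, against 2.34% of tested genes. The median difference was 1.24, with a range of 0.44 to 2.16, against a median of 0.07 for all tested genes. Without regard to sign, the median over all tested genes was 0.16. In FPKM, the ratio of replicate 1 to replicate 2 had a median of 3.01 over the members and of 2.52 over the GTPase members. The ratio of PBS replicate 2 to PBS replicate 1 ran from 0.810 (Mx1) to 1.53 (Rsad2). On the log2 scale the median absolute difference of the PBS libraries was 0.14 over the members, against 0.09 for all tested genes. The members also leaned 1 way in PBS, with 32 of 39 higher in PBS replicate 2. Their median signed difference was 0.13, against -0.01 for all tested genes. All 39 members were also higher in replicate 1 after rescaling to TPM, upper quartile scaling and quantile normalization.

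**Figure D3:**
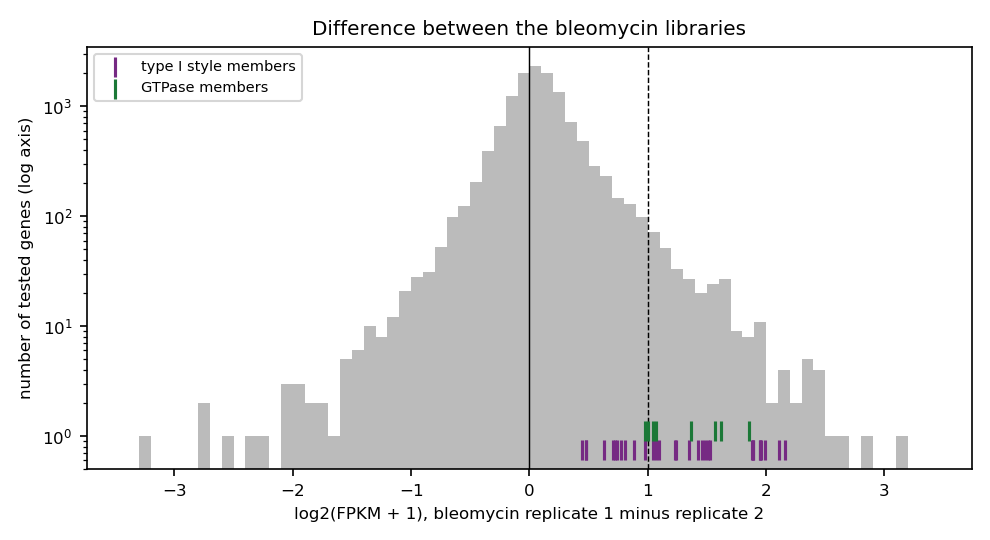
Distribution of the difference between bleomycin replicate 1 and replicate 2 in log2(FPKM + 1) over 12986 tested genes (grey, log axis of counts), with each member as a tick: GTPase members in green, type I style members in purple. All 39 ticks lie right of 0, and 27 lie right of the dashed line at 2-fold.

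The group result therefore depended on which bleomycin library was used. Without bleomycin replicate 2, limma called 25 members higher, 2 GTPase and 23 type I style, against 18.5% of tested genes, and 1 lower, Irf1, against 15.0%. Without bleomycin replicate 1, it called 1 member higher, Lgals3bp, against 18.0% of tested genes, and 26 lower, 7 GTPase and 19 type I style, against 24.2%. The 2 higher GTPase members without replicate 2 were Irgm1 and Iigp1, and Iigp1 was the GTPase member not called lower without replicate 1. In these fits a single bleomycin library is assumed to vary like the PBS pair, and the members' bleomycin libraries stood further apart than their PBS libraries. The log2 fold change of Irf1 was -0.33 with bleomycin replicate 1 alone and -0.81 with bleomycin replicate 2 alone. That of Lgals3bp was 1.17 and 0.29 in the same order. Both fits share the PBS libraries, and the share of all tested genes that kept a direction in this way was not computed.

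By level, the PBS means ran from 1.18 FPKM (Mx2) through 75.5 FPKM (Irf1) and 111 FPKM (Bst2) to 672 FPKM (Ifitm3). Of the 38 pairs of neighbours in this order, 20 overlapped in their PBS libraries. The summed level of all members was 1807 and 978 FPKM with bleomycin and 1337 and 1531 FPKM with PBS, a sum to which Ifitm3 adds the most.

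Upstream of the members, the interferons themselves were hardly detected. Of 21 ligand genes asked for, 5 were in the table and 0 reached the mean of 1 FPKM needed for a test. Ifng, the gene of interferon gamma, had 0.23 and 0.09 FPKM with bleomycin, against 0.19 and 0.37 FPKM with PBS. Ifnz had 0 and 0.44 FPKM with bleomycin, against 0 and 0.09 FPKM with PBS. No order between the libraries can be read from values this low.

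Among 6 receptor genes, 1 rose and 0 fell. Of all tested genes, 8.59% were called higher and 7.69% lower, and whether the short lists given here depart from these shares was not tested. Ifngr2, a chain of the interferon gamma receptor, had 57.92 and 65.66 FPKM with bleomycin, against 39.40 and 41.78 FPKM with PBS, and rose by 0.59 ± 0.10 on the log2 scale (SE; limma adjusted p = 0.0242). Its partner chain Ifngr1 had 86.24 and 67.62 FPKM with bleomycin, against 103.16 and 104.42 FPKM with PBS, and did not pass. Among 12 genes of JAK-STAT signalling and its inhibitors, 3 rose and 0 fell. Socs3, a feedback inhibitor that cytokines of the IL-6 family induce, had 46.28 and 40.92 FPKM with bleomycin, against 10.53 and 9.92 FPKM with PBS, and rose by 1.99 ± 0.10 on the log2 scale (SE; limma adjusted p = 0.00436). Stat3 had 76.70 and 72.63 FPKM with bleomycin, against 50.49 and 48.25 FPKM with PBS, and the phosphatase gene Ptpn1 had 46.87 and 37.21 FPKM, against 25.69 and 27.12 FPKM. In these 3 genes, which were picked because they passed the test, both bleomycin libraries stood above both PBS libraries.

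Among 19 genes of nucleic acid sensing and its adaptors, 3 rose and 0 fell, against 8.59% and 7.69% of all tested genes. Tmem173, which encodes the adaptor STING, had 33.26 and 24.79 FPKM with bleomycin, against 8.01 and 8.73 FPKM with PBS, and rose by 1.67 ± 0.16 on the log2 scale (SE; limma adjusted p = 0.00937). Tlr8, an endosomal receptor, had 7.08 and 5.89 FPKM with bleomycin, against 2.26 and 2.50 FPKM with PBS. Myd88, the adaptor of most Toll-like receptors, had 37.75 and 32.14 FPKM with bleomycin, against 22.52 and 23.93 FPKM with PBS. In these 3 genes, which were picked because they passed the test, the groups stood well apart. The remaining 16 of the 19 did not pass, nor did the sensor genes among the members, Ifih1, Ddx58 and Zbp1. Of 9 other interferon regulatory factor genes, 0 passed in either direction, Irf2 with 36.62 and 28.19 FPKM with bleomycin and 41.25 and 36.19 FPKM with PBS.

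Most induced genes that are not members were also higher in bleomycin replicate 1 than in replicate 2. Of 51 other type I style induced genes tested, 0 rose and 0 fell, against 8.59% and 7.69% of all tested genes. Of these 51 genes, 49 were higher in replicate 1 than in replicate 2, against 62.3% of all tested genes. In 18 of them the gap was at least 2-fold, against 2.34% of all tested genes. Their median difference between the bleomycin libraries was 0.74 on the log2 scale, against 1.24 for the members. The most abundant were Ly6a, with 785.51 and 734.69 FPKM with bleomycin and 598.23 and 795.30 FPKM with PBS, and Ly6e, with 703.17 and 468.10 FPKM with bleomycin and 526.48 and 530.09 FPKM with PBS. Of 14 other GTPases tested, 0 rose and 0 fell, 13 were higher in replicate 1 and 8 at least 2-fold. Tgtp2, an IRG gene with the near-identical copy Tgtp1, had 23.77 and 5.32 FPKM with bleomycin, against 18.78 and 25.22 FPKM with PBS. Ifi47 had 34.28 and 18.79 FPKM with bleomycin, against 22.90 and 26.14 FPKM with PBS. Of 12 other genes that respond to interferon gamma, 0 passed in either direction and 11 were higher in replicate 1. The chemokine gene Ccl5 had 41.21 and 7.55 FPKM with bleomycin, against 69.50 and 43.40 FPKM with PBS.

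Lymphocyte markers, like the members, were higher in bleomycin replicate 1 than in replicate 2, as were 62.3% of all tested genes. The direction alone was not particular to lymphocytes. It was seen in 6 of 6 erythrocyte markers and 7 of 8 club and ciliated cell markers, but in 2 of 8 alveolar type I cell markers. The median log2 gap was 1.29 for T, 1.57 for B and 1.45 for NK cell markers, against 0.07 for all tested genes. In that order, 5 of 7, 4 of 6 and 5 of 7 tested markers differed at least 2-fold, against 2.34% of all tested genes. Erythrocyte markers had a median of 0.59 with 0 of 5 at that size, and club and ciliated cell markers 0.82 with 2 of 8. In bulk tissue, fewer cells of a type and less RNA per cell cannot be told apart. Markers of T cells summed to 41.4 and 13.4 FPKM with bleomycin and to 32.8 and 31.7 FPKM with PBS, and 8 of 8 in the table were higher in replicate 1. Markers of B cells summed to 47.1 and 11.1 FPKM with bleomycin and to 42.6 and 40.6 FPKM with PBS, again with 8 of 8 higher in replicate 1. Markers of NK cells summed to 64.5 and 11.0 FPKM with bleomycin and to 121 and 79.9 FPKM with PBS, with 11 of 11 higher in replicate 1 and Klre1 at 0 in replicate 2. Ccl5, given above among genes that respond to interferon gamma, is also in the NK cell list and makes up most of its sum in each library. Replicate 2 was thus the lowest library for all 3 lists, while replicate 1 was at or above PBS for T and B cell markers and below it for NK cell markers. None of the tested genes of these lists passed between the groups. Plasmacytoid dendritic cells are strong producers of type I interferon, and their 9 markers other than Bst2 summed to 51.8 and 38.0 FPKM with bleomycin and to 50.1 and 48.8 FPKM with PBS, with Klk1 at 0 in replicate 2.

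By gene, most myeloid markers were also higher in replicate 1 than in replicate 2, as were 62.3% of all tested genes. Of all tested genes, 8.59% were called higher with bleomycin and 7.69% lower. Of 12 markers of recruited macrophages 11 rose, and the list summed to 2821 and 1586 FPKM with bleomycin and to 786 and 833 FPKM with PBS. Spp1, which encodes osteopontin, had 855.54 and 443.42 FPKM with bleomycin, against 49.98 and 57.59 FPKM with PBS, and Trem2, a lipid receptor of macrophages, had 46.86 and 32.91 FPKM, against 3.32 and 4.47 FPKM. All 12 of these markers were also higher in replicate 1, but replicate 2 remained above PBS in the sum. Monocyte markers summed to 544 and 503 FPKM with bleomycin and to 484 and 500 FPKM with PBS, with 9 of 10 higher in replicate 1 and 0 of 9 tested called. Neutrophil markers summed to 218 and 161 FPKM with bleomycin and to 466 and 592 FPKM with PBS, with 9 of 10 higher in replicate 1, 4 of 10 called lower and Ly6g at 0 in replicate 2. Markers of resident alveolar macrophages summed to 636 and 1317 FPKM with bleomycin and to 642 and 756 FPKM with PBS. That sum was carried by Chil3, with 315.57 and 1049.99 FPKM with bleomycin and 306.75 and 392.15 FPKM with PBS. Of these markers, 7 of 10 were higher in replicate 1, close to the share of all tested genes, and 4 of 10 fell. The part of any of these cell types in the levels of the members was not tested.

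**Figure D4:**
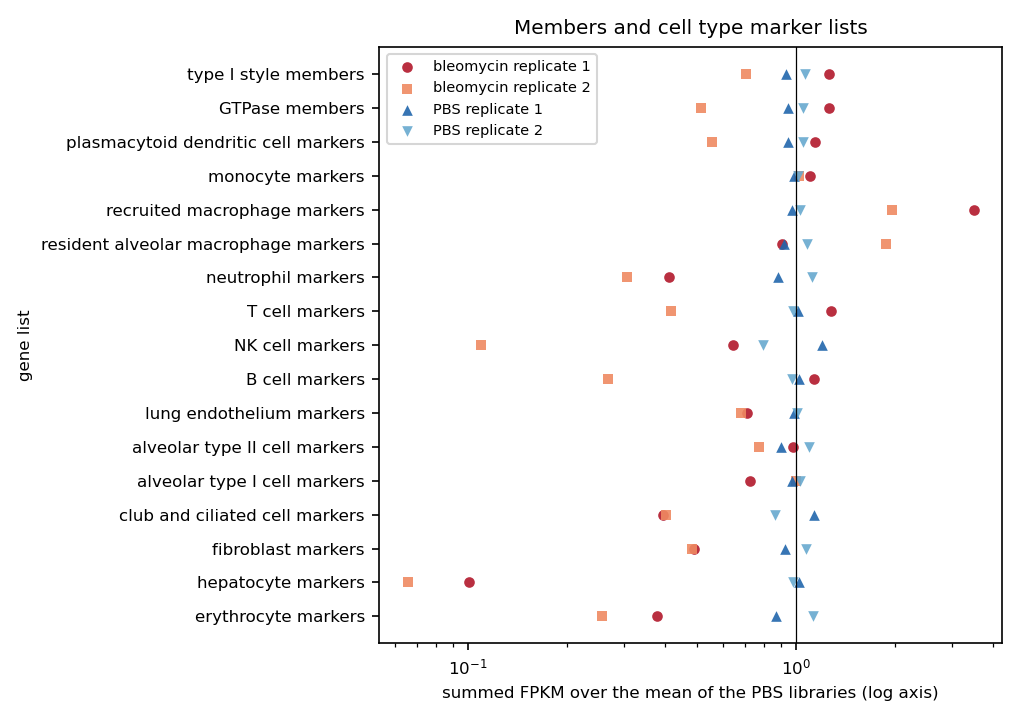
Summed FPKM of the type I style members, the GTPase members and each cell type marker list in each library, divided by the mean of the PBS libraries (log axis). Both member classes and the T cell, B cell and plasmacytoid markers have bleomycin replicate 1 above and replicate 2 below the PBS libraries. Recruited macrophage markers and, by a smaller margin, monocyte markers have both bleomycin libraries above. The plasmacytoid list includes the member Bst2, and the NK cell list includes Ccl5, which responds to interferon gamma.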

How the data were processed

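RNA sequencing libraries of mouse lung were grouped by the treatment in their titles, 2 with bleomycin and 2 with PBS. The unit is FPKM, which the authors computed and deposited for each gene, rounded to 2 decimals, per the file headers. Submitters' processing notes list HISAT, Bowtie2, GRCm38 and mm10, and which aligner did what, the quantifier and the use of strand were not given in the sources used here. An abundant gene lowers the FPKM of all others: Scgb1a1 held 3.98% and 4.28% of summed FPKM with bleomycin and 11.2% and 8.35% with PBS.

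The table has 17692 rows. A single row lacking a gene name, holding up to 0.0009% of summed FPKM, was dropped, and 27 symbols that had become spreadsheet dates were restored. Members were matched by symbol, and 39 of 39 were found. The members and gene lists were chosen with earlier results of these data known. All members are named, with, for each other list, up to 4 called genes of largest change or up to 2 of highest mean, and for marker lists the sums. Some genes of these lists are not reported here. Depth was estimated as the value at which low FPKM become whole fragments, and 74.7% to 78.0% of low values then lay within 0.15 of a whole fragment. That estimate is approximate, since reads were not counted here.

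Genes averaging 1 FPKM or more were tested, as log2(FPKM + 1), by lmFit and trended eBayes of limma 3.58.1 under R 4.3.3, with 2 residual and 2.76 prior degrees of freedom, after a run on simulated data with 200 changed genes. Promoters and positions are from RefSeq, GRCm38.p6, with 16961 symbols matched. Other steps used Python 3.11.15, numpy 2.4.6 and pandas 2.3.3. Other settings run were a pseudocount of 0.1 or 0.5, a filter at 5 FPKM or none, scaling to TPM, by upper quartile or by quantiles, eBayes that was robust or lacked the trend, array weights per group, replicate number as a block, and each library left out in turn.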

Additional observations from a re-analysis of the deposited data

How the results depend on the processing

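Under the 11 alternatives that keep all 4 libraries, the count of members called higher or lower stayed at 0, with Irf1 lowest at adjusted p of 0.0619 to 0.15 (limma). Leaving out 1 library moved the counts. Over the 4 such fits, members called ran from 0 to 25 higher and 0 to 26 lower, with 0 to 2 and 0 to 7 among GTPase members and 0 to 23 and 0 to 19 among type I style members. Over all genes these fits gave 0 to 2402 higher and 0 to 3144 lower, with 0 in both directions when either PBS library was left out. The direction of 33 members turned when 1 library was left out. Lowest to highest log2 fold changes when 1 library was left out were Ifih1 -0.36 to 0.28, Ddx58 -0.13 to 0.35, Zbp1 -0.25 to 1.71, Irf7 -0.37 to 1.51, Irf9 -0.87 to 0.20, Stat2 -0.71 to 0.38, Ifit1 -0.84 to 1.11, Ifit2 -0.16 to 0.58, Ifit3 -0.87 to 0.11, Oas1a -0.11 to 1.88 and Oas2 -0.23 to 1.72. Further such ranges were Oasl1 -0.29 to 1.14, Oasl2 -0.61 to 0.91, Mx1 -0.0040 to 1.22, Mx2 -0.52 to 0.52, Rsad2 -0.25 to 1.91, Cmpk2 -1.06 to 0.41, Bst2 -1.09 to 0.26, Ifitm3 -0.40 to 0.041, Isg15 -0.39 to 1.71, Usp18 -0.87 to 0.61 and Trim25 -0.38 to 0.34. The remaining ranges were Parp9 -0.37 to 0.34, Parp14 -0.53 to 0.24, Dtx3l -0.32 to 0.48, Ifi44 -1.19 to 0.70, Xaf1 -1.21 to 0.30, Rtp4 -1.30 to 0.59, Gbp5 -1.44 to 0.18, Igtp -1.24 to 0.33, Irgm1 -0.35 to 0.63, Irgm2 -0.88 to 0.16 and Iigp1 -0.051 to 0.95. Members near 0 also turned under other scalings: to 0.018 (Ifih1), 0.0046 (Mx2), 0.049 (Trim25) and 0.052 (Parp9) with TPM, to 0.081 (Mx2) and 0.0012 (Trim25) with quantile normalization, and to 0.0012 (Mx2) and 0.0034 (Parp9) with upper quartile scaling. The cause was not tested.

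With the replicate block, 842 genes were called higher and 799 lower, against 1116 and 998 without it, and 0 members in either direction. Same-numbered deviations from the group means had a correlation of 0.0231 over 12986 genes, so the replicate numbers were not taken as a pairing. A p that misses the threshold does not show that a member did not differ between the groups. Estimated depth limits the lowest members most, Mx2 with 21.9 fragments in bleomycin replicate 2.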

Other observations

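A few induced genes outside the 39, chosen after their values were seen, kept the gap between the bleomycin libraries but stood above PBS in both of them. Cxcl10, a chemokine gene that draws T cells and NK cells, had 20.33 and 5.62 FPKM with bleomycin, against 2.87 and 3.44 FPKM with PBS. Mnda, a nuclear protein gene of myeloid cells, had 19.34 and 6.53 FPKM with bleomycin, against 3.51 and 4.36 FPKM with PBS. Casp4, the caspase that senses bacterial lipopolysaccharide in the cytosol, had 20.07 and 9.04 FPKM with bleomycin, against 6.51 and 7.47 FPKM with PBS. The groups did not overlap for these 3 genes, which were chosen for that, and 31.5% of all tested genes had this layout. Their log2 fold changes were 1.52 ± 0.56, 1.33 ± 0.48 and 0.87 ± 0.36 (SE). None passed, at limma adjusted p of 0.131, 0.127 and 0.165.

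Genes that ran against the gap were few. Of the other type I style genes, Oas1c had 2.23 and 3.03 FPKM with bleomycin, against 1.92 and 1.81 FPKM with PBS, and Ifitm2 had 471.1 and 477.9 FPKM with bleomycin, against 501.3 and 533.6 FPKM with PBS. Apol6, listed among genes that respond to interferon gamma, had 1.4 and 2.23 FPKM with bleomycin, against 0.69 and 0.79 FPKM with PBS, and did not pass (limma adjusted p = 0.0808). Ms4a4c showed the opposite extreme, with 3.48 and 0.16 FPKM with bleomycin, against 2.29 and 1.76 FPKM with PBS.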
